A study of Mus musculus with 5 samples.

Results

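Integrins and other cell adhesion molecules were followed in dendritic cells of the mouse thymus before and after radiation injury. The set holds 34 genes, 25 integrin chains and 9 other adhesion molecules, out of 18051 genes in the table. They were chosen by symbol for what they encode, with earlier results of these data known. All 34 were in the table, and 31 had enough reads to be tested. The mice were C57BL/6J, 6 to 8 weeks old. Their thymi were pooled and digested, and a sort kept cells carrying CD45 with surface CD11c and class II MHC for bulk RNA sequencing. Of the 5 libraries, 2 came from untreated mice and 3 from mice given total body irradiation (TBI) 4 days earlier. The radiation dose is not given in the sources used here, and nothing states that replicates came from separate pools of animals, so p-values measure the spread between these libraries only.

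Integrins are receptors of 1 alpha and 1 beta chain that tie a cell to matrix or to other cells, and an alpha chain reaches the surface only with its beta partner. The beta 2 family is restricted to leukocytes. It consists of LFA-1 (Itgal), Mac-1 or CR3 (Itgam), CD11c (Itgax) and CD11d (Itgad), each joined to Itgb2, and binds ICAMs, complement fragments and fibrinogen. The alpha E chain (Itgae, CD103) joins Itgb7 and binds E-cadherin, and it marks type 1 dendritic cells in many tissues. Selplg carries the ligand of the selectins, and Cd44 binds hyaluronan.

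Libraries held 7227000 to 8428589 counts, so that 1 count was worth 0.123 to 0.145 CPM, the count scaled to library size with TMM factors. Of 6 conventional dendritic cell markers, 0 were higher and 5 were lower after TBI, and only Cd74 did not pass. Cd74, the MHC class II invariant chain, had 169533 to 228049 counts in the 5 libraries. Flt3, a receptor of the dendritic cell lineage, had 2530 and 2713 counts in untreated libraries and 240, 328 and 264 after TBI. Type 1 dendritic cell markers (10 genes, summed) went from 4047 and 4336 CPM to 1083, 1198 and 1099 CPM, and 9 of the 10 were lower. Plasmacytoid markers (9 genes) went from 3449 and 3349 CPM to 440.3, 551 and 462 CPM, and all 9 were lower. Macrophage and monocyte markers (14 genes) went from 6324 and 5249 CPM to 56515, 53816 and 50847 CPM, with 13 higher and 1 lower, none at 0. Type 2 dendritic cell markers (7 genes), a subset that carries CD11b, went from 1227 and 1058 CPM to 2070, 2045 and 2070 CPM, with 3 higher and 1 lower of 6 tested. Natural killer and innate lymphoid markers (7 genes) went from 109 and 112 CPM to 773, 762 and 894 CPM, with 6 higher and 0 lower. B cell markers (5 genes) went from 91.1 and 68.5 CPM to 371, 380.4 and 244 CPM, and all 4 tested were higher. Of 9 T cell markers 1 was higher and 4 were lower, and of 6 tested neutrophil markers 1 was higher and 1 lower. These shifts lie between the same groups as every comparison that follows, and their part in those results was not tested. In bulk RNA, fewer cells of a type and less RNA per cell cannot be told apart.

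The library of TBI replicate 1 differed from the remaining TBI libraries in a way that followed transcript length. Its log2 CPM against their mean had a median of 0.49 for genes with under 1 kb of exon sequence and -0.23 for genes over 6 kb, while the same difference between the untreated libraries had medians of 0.04 and -0.01. Adhesion genes are long, with a median of 5.02 kb against 4.42 kb for all genes tested. At 4 to 6 kb the median difference was -0.46 for 14 members and -0.09 for all genes of that length. Over 6 kb it was -0.62 for 12 members and -0.23 for all genes. At 2 to 4 kb it was 0.08 for 5 members and 0.12 for all genes. Members over 4 kb were thus lower in this library than genes of like length, and the cause was not tested. TBI replicate 1 was the lowest TBI library for 20 of the 31 tested members (64.5%), against 39.3% of all genes tested. Values without this library are given below wherever they change the call of a member.

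Of the 31 tested members, 8 were higher and 10 were lower after TBI and 13 did not pass an adjusted p of 0.05 in the edgeR quasi-likelihood test. The share called was 58.1%, against a background of 23.1% of 12046 genes. By direction, 25.8% of members were higher where the background was 13.3%, and 32.3% were lower where it was 9.79%. Among the called members, Itga2 passed the low-count filter only through the TBI libraries, and Cdh5 and Itga3 only through the untreated ones. The shares of members called are thus partly set by the filter. The median log2 fold change of the members was -0.17, and that of all genes tested was -0.01. The groups did not overlap in CPM for 22 members (71.0%), where 56.1% of all tested genes had no overlap. Without untreated replicate 1 the counts were 6 higher and 5 lower, and without untreated replicate 2 they were 6 and 6. Without TBI replicate 1 they were 9 and 12, and with each library's trend with transcript length removed they were 8 and 9.

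**Figure D1:**
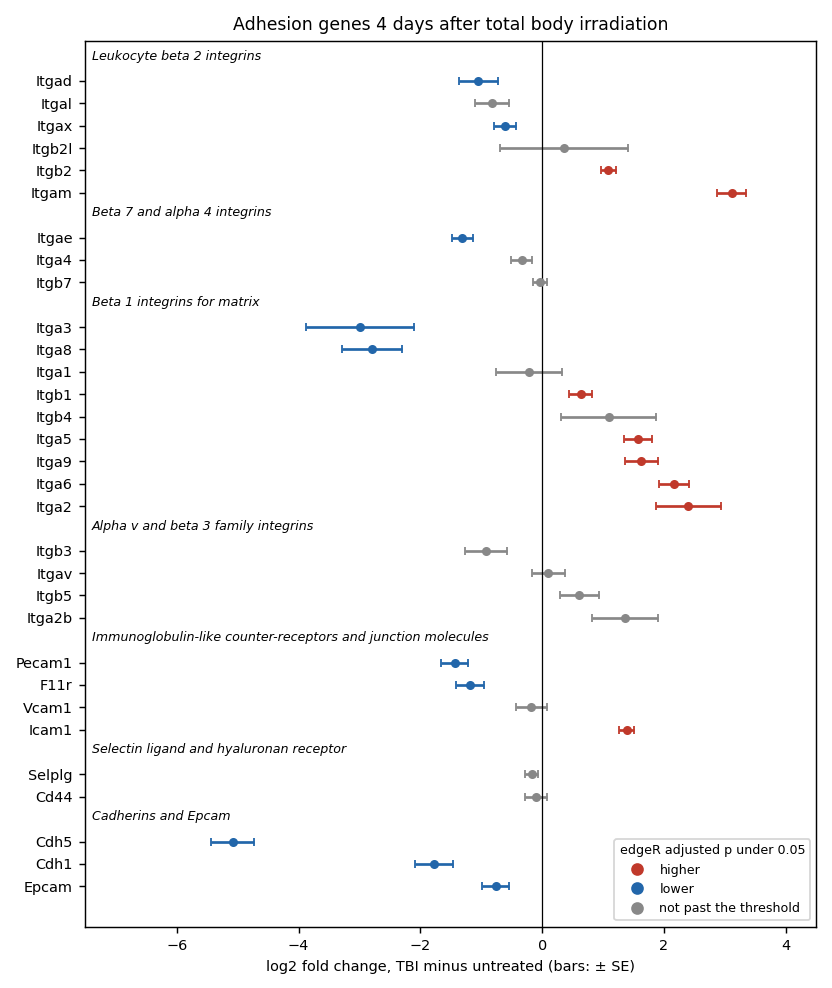
Log2 fold change (TBI minus untreated, horizontal axis) of the 31 tested adhesion genes, grouped by receptor family, with bars of 1 SE from edgeR. Itgam lies farthest to the right at 3.11 and Cdh5 farthest to the left at -5.08, and the 4 tested alpha v and beta 3 family genes are all grey, for not past the threshold.

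The leukocyte integrins changed in opposite directions within a single gene cluster. On chromosome 7 of GRCm38 (the build also called mm10), Itgam (128062640 to 128118491), Itgax (128129547 to 128150657) and Itgad (128154376 to 128223816) follow each other on the plus strand. A gap of 11055 bases separates Itgam from Itgax and one of 3718 bases separates Itgax from Itgad, with 0 genes of the table between them. Itgal lies on the same strand at 127296260 to 127335138, with 36 genes of the table between it and Itgam. Bases upstream of the first exon are shown for Itgam and Itgax because these neighbours moved in opposite directions, and for Icam1 because its transcript, which encodes a ligand of these receptors, rose with Itgam. They are RefSeq sequence of GRCm38.p6, plus strand, and end before the first annotated exon base: chr7:128062390-128062639 (250 bases), chr7:128129300-128129546 (247 bases) and chr9:21015690-21015939 (250 bases). Capitals mark matches to GAGGAA, the core of many sites of the myeloid factor PU.1, and to GGAAATTCC, a form of the NF-kB site, on either strand.
Itgam: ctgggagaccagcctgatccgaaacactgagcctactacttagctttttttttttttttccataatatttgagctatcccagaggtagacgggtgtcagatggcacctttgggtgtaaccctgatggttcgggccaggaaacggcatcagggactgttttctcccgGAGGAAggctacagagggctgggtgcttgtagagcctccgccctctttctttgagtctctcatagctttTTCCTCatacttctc
Itgax: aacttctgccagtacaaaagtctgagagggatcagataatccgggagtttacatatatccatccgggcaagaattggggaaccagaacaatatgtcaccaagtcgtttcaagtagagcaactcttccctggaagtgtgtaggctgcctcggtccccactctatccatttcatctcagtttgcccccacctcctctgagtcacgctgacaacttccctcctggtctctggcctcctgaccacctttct
Icam1: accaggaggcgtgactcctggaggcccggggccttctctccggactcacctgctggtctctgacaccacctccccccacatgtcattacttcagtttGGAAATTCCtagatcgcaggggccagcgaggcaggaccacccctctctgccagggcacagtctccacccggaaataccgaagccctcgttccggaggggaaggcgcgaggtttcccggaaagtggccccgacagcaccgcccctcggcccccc
The Itgam window held 2 matches to GAGGAA and that of Itgax held 0, where 23.3% of 32851 promoter windows of 250 upstream bases held at least 1. The Icam1 window held 1 match to GGAAATTCC, found in 0.286% of all windows, and the motifs did not overlap. No window held TATAAA, present in 12.4% of all. Promoter sequence was matched by symbol for 21 of the 34 members. A match describes letters in the window and does not show binding. Among the members, matches were read only for the genes shown, which were picked by their direction. Other forms of these sites were not searched, and a link between matches and direction was not tested.

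Itgam, the CD11b chain of Mac-1, had 121 and 151 CPM in untreated libraries and 857, 1435 and 1232 CPM after TBI. Every TBI library lay above both untreated ones, and the lowest of them was TBI replicate 1. Its log2 fold change was 3.11 ± 0.24 (SE), or 8.63-fold (edgeR adjusted p = 5.66e-05). An annotated readthrough gene shares 3450 of the 5024 exon bases of Itgam but has no row in the table.

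Itgb2, the common beta chain CD18, rose with less spread. It had 788 and 775 CPM against 1527, 1797 and 1656 CPM, with no overlap of the groups. On the log2 scale the difference was 1.09 ± 0.12 (edgeR adjusted p = 0.000378).

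Itgax, which encodes the CD11c antigen used in the sort, had 315 and 309.9 CPM against 155, 216 and 238 CPM. All TBI libraries were below the untreated ones. The sort was on the surface protein, while these values are of the transcript. The log2 fold change was -0.62 ± 0.18 (edgeR adjusted p = 0.0417). The call was lost without untreated replicate 1, untreated replicate 2 or TBI replicate 2, and adjusted p ran from 0.00569 to 0.205 over all alternatives.

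Itgad, a sparse chain, had 115 and 111 counts against 44, 73 and 37. Its log2 fold change was -1.05 ± 0.32 (edgeR adjusted p = 0.0492), close to the threshold. The call was lost in 6 of 15 alternatives, among them the removal of the length trend (adjusted p = 0.0579) and the omission of TBI replicate 3, untreated replicate 1 or untreated replicate 2, with a range of 0.0209 to 0.257. Exons of Itgad share 70 bases with Cox6a2 on the other strand, a plasmacytoid marker that went from 841 and 843 counts to 19, 100 and 41. With no strand setting stated, reads of the shared bases cannot be assigned to either gene.

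Itgal, the alpha chain of LFA-1, had 462 and 459.8 CPM against 151, 319 and 311 CPM. The groups did not overlap, and TBI replicate 1 was the lowest library. The log2 fold change of -0.82 ± 0.28 did not pass (edgeR adjusted p = 0.0692). Without TBI replicate 1 it was -0.55 and passed with an adjusted p of 0.00143. With all 5 libraries it also passed in DESeq2 (adjusted p = 0.0199), in limma-voom (0.0461), by library size alone (0.0331) and with the replicate block (0.0112), and over all 15 alternatives adjusted p ran from 0.00143 to 0.211. Itgb2l, a paralogue of Itgb2, had 1 and 13 counts against 13, 5 and 7 and did not pass.

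The makeup of the beta 2 family was compared per exon length, since a longer transcript gives more reads. In RPKM (CPM per kilobase of exon), Itgal made up 43.1% and 41.8% of the 4 alpha partners in untreated libraries, Itgax 40.2% and 38.5%, and Itgam 14.8% and 17.9%. After TBI, Itgam made up 75.0%, 74.9% and 71.5%, Itgal 10.1%, 12.7% and 13.8%, and Itgax 14.2%, 11.8% and 14.5%. Itgam was thus the third of the 4 chains in both untreated libraries and the first in every TBI library. Itgal stayed above Itgax in TBI replicate 2 and lay below it in the other TBI libraries, and Itgad was lowest in all 5. Itgad fell from 1.89% ± 0.05 (SD, n = 2) to 0.49% ± 0.16 (SD, n = 3) of the sum, given as shares with no test. With the longest transcript as the length, Itgam was at 14.7% and 71.3%. The ratio of Itgam to Itgax in RPKM was 0.369 and 0.465 in untreated libraries and 5.27, 6.34 and 4.94 after TBI. The summed level of the 4 alpha chains stood in a similar ratio to Itgb2 in both groups, at 0.632 and 0.660 untreated and 0.454, 0.648 and 0.633 after TBI, and these ranges overlap.

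**Figure D2:**
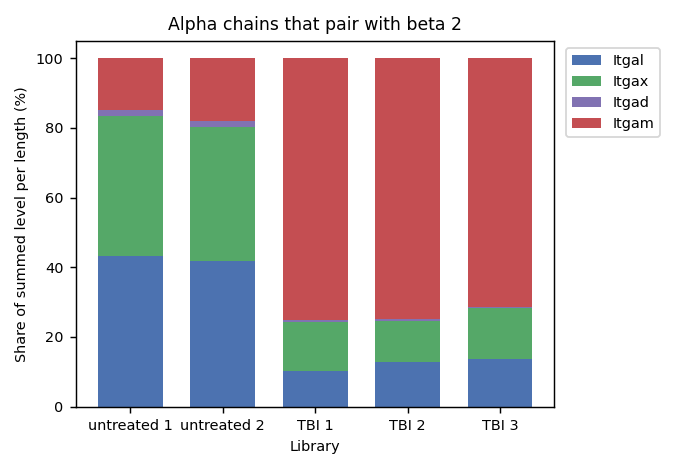
Share (%) of each alpha chain in the summed level per exon length of the 4 partners of beta 2, by library. Itgam fills 14.8% and 17.9% of the untreated bars and 71.5% to 75.0% of the TBI bars.

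The alpha E chain fell while its partner did not pass the test. Itgae had 252 and 245 CPM against 83.0, 97.7 and 119.8 CPM, and the groups did not overlap. On the log2 scale the difference was -1.31 ± 0.17 (edgeR adjusted p = 0.000824). Itgb7, which pairs with both alpha E and alpha 4, had 519 and 540.1 CPM against 534, 522 and 493 CPM (log2 fold change -0.04 ± 0.11, edgeR adjusted p = 0.850). The ratio of Itgae to Itgb7 per exon length went from 0.294 and 0.274 to 0.0939, 0.113 and 0.147. Itga4, the alpha 4 chain that binds VCAM-1 and fibronectin, had 99.5 and 87.9 CPM against 65.3, 68.7 and 88.0 CPM. Its groups overlapped and it did not pass (log2 fold change -0.34 ± 0.18, edgeR adjusted p = 0.206). Exons of Itga4 share 1124 bases with Cerkl on the other strand, which had 6 to 25 counts per library.

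Among the integrins for matrix proteins, the common beta chain and 4 alpha chains were higher and 2 alpha chains were lower. Itga6, a laminin receptor chain, had 26.4 and 20.5 CPM against 85.3, 134 and 94.2 CPM, which is a log2 fold change of 2.16 ± 0.25 (edgeR adjusted p = 0.000469). Itga5, the classical fibronectin receptor chain, had 41.3 and 42.4 CPM against 89.3, 137 and 146 CPM, with a log2 fold change of 1.57 ± 0.23 (edgeR adjusted p = 0.00165). Itga9, which binds tenascin and other ligands, had 14.4 and 13.0 CPM against 30.5, 50.9 and 45.8 CPM, with a log2 fold change of 1.63 ± 0.27 (edgeR adjusted p = 0.00308). For these 3 chains all TBI libraries were above both untreated ones, and all 3 were called in each of the 15 alternatives.

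Itga2, a collagen receptor chain, was sparse, with 8 and 8 counts against 47, 42 and 30. The log2 fold change was 2.40 ± 0.54 (edgeR adjusted p = 0.0138). The call was lost without untreated replicate 1 or untreated replicate 2, with adjusted p from 0.00208 to 0.129 over all alternatives. The alpha 2 chain is also the CD49b antigen of natural killer cells, whose markers were higher in the same libraries, and their part in the Itga2 result was not tested. Itgb1, the beta chain shared by these receptors, had 342 and 357 CPM against 401, 619.6 and 603 CPM. Its groups did not overlap, but the log2 fold change of 0.63 ± 0.19 was at the threshold (edgeR adjusted p = 0.0496). The call was lost in 10 of 15 alternatives, including every other scaling (log2 fold change 0.41 by library size alone), limma-voom and all omissions of a library other than TBI replicate 1, with adjusted p from 0.000185 to 0.241.

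Itga8, which binds nephronectin and fibronectin, had 184 and 144 counts against 6, 33 and 28. The groups did not overlap, and the log2 fold change was -2.80 ± 0.49 (edgeR adjusted p = 0.00416). Its exons share 372 bases with E030013I19Rik on the other strand, a gene with 22 and 23 counts against 0, 5 and 0, fewer than Itga8 in each library. Itga3, a laminin receptor chain, had 53 and 66 counts against 0, 5 and 16. Its log2 fold change was -2.99 ± 0.88 (edgeR adjusted p = 0.0413), and it was -4.41 without TBI replicate 3 and -4.60 with the replicate number as a block. The Itga3 call was lost without untreated replicate 1, untreated replicate 2 or TBI replicate 2, and its adjusted p ran from 0.00630 to 0.224.

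Itga1 had 72 and 75 counts against 28, 37 and 114, where TBI replicate 3 stood above the untreated libraries and the other TBI libraries below them. It did not pass (edgeR adjusted p = 0.809), and its log2 fold change of -0.22 was -1.06 without TBI replicate 3, 0.09 without TBI replicate 1 and 0.05 without TBI replicate 2. Itgb4, the partner of alpha 6 in epithelia, had 9 and 8 counts against 20, 25 and 6 and did not pass (edgeR adjusted p = 0.359). Itga7 was under the filter on low counts, with 0 counts in both untreated libraries and 0, 7 and 14 after TBI.

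**Figure D3:**
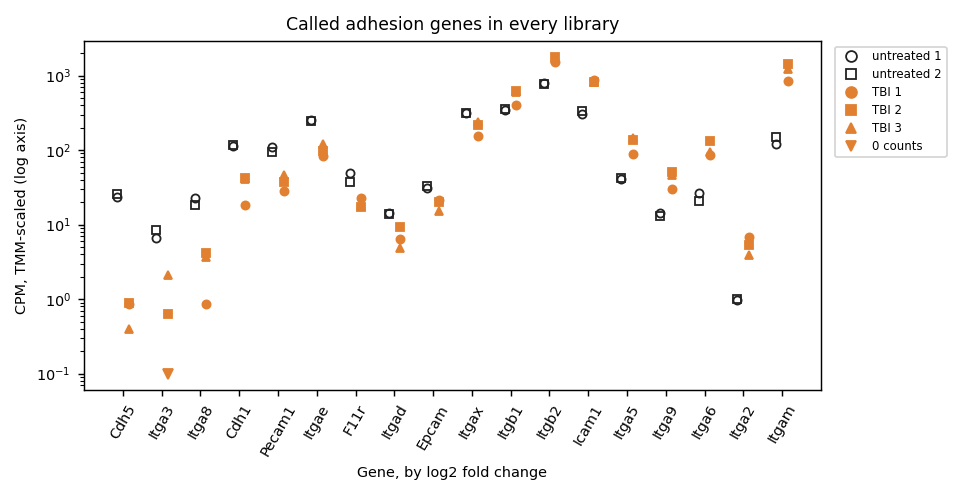
CPM (log axis) of the 18 called adhesion genes in each of 5 libraries, ordered by fold change from Cdh5 to Itgam, with open symbols for untreated and filled symbols for TBI libraries. No gene shown has overlapping groups, and the triangle at the bottom marks Itga3 in TBI replicate 1, at 0 counts.

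None of the 4 tested alpha v and beta 3 family genes passed in edgeR, DESeq2 or limma-voom, although Itgb3 and Itga2b, 2 of the 4, had an unadjusted edgeR p below 0.05 (0.0252 and 0.0363). Itgav, a partner of several beta chains, had 26.04 and 31.10 CPM against 21.5, 30.4 and 39.8 CPM (edgeR adjusted p = 0.826). Itgb3 had 29.9 and 35.9 CPM against 9.39, 22.4 and 20.0 CPM. Its groups did not overlap, and its log2 fold change of -0.93 ± 0.34 did not pass (edgeR adjusted p = 0.0871). Without TBI replicate 1 it was -0.63 and passed (adjusted p = 0.0297), as it did by library size alone (0.0439) and with the replicate block (0.0249), and over all alternatives adjusted p ran from 0.0249 to 0.379.

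Itgb5 had 79.8 and 67.0 CPM against 62.3, 127 and 146 CPM. TBI replicate 1 lay below the untreated libraries and the other TBI libraries above them. On the log2 scale the difference was 0.61 ± 0.32 (edgeR adjusted p = 0.215), and without TBI replicate 1 it was 0.89 with an adjusted p of 0.000797, in a range of 0.000797 to 0.584. Itga2b, the platelet fibrinogen receptor chain CD41, had 14 and 13 counts against 37, 39 and 21 and did not pass (log2 fold change 1.36 ± 0.54, edgeR adjusted p = 0.112). In the same libraries 7 other platelet and megakaryocyte markers summed to 9.38 and 7.96 CPM against 621, 457 and 482 CPM, most of it Pf4, a platelet chemokine (62 and 49 counts against 4159, 3550 and 3626). Of these 7 markers 3 were higher, 0 were lower and 4 were under the filter. The platelet receptor genes Gp1ba and Gp6 had at most 3 and 6 counts in any library. The part of platelets and megakaryocytes in the value of Itga2b was not tested. Itgb6 had 1 count in all 5 libraries, and Itgb8 had 10 and 4 counts against 1, 0 and 2, both under the filter.

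Counter-receptors of the immunoglobulin family and junction molecules moved in different directions. Icam1, the ligand of LFA-1 and Mac-1, had 305 and 335 CPM against 875, 823 and 810.2 CPM. The TBI libraries were close to each other and all above the untreated ones, with a log2 fold change of 1.39 ± 0.12 (edgeR adjusted p = 0.000109), called in each of the 15 alternatives. Vcam1, the ligand of alpha 4 beta 1, had 277 and 235 CPM against 146, 237 and 296 CPM. Its TBI range covered the untreated range, and it did not pass (log2 fold change -0.18 ± 0.26, edgeR adjusted p = 0.671).

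Pecam1, the CD31 molecule of endothelium, platelets and many leukocytes, had 109.7 and 92.8 CPM against 27.9, 37.6 and 46.5 CPM. The groups did not overlap, with a log2 fold change of -1.44 ± 0.22 (edgeR adjusted p = 0.00217). F11r, the junctional adhesion molecule JAM-A, which also binds LFA-1, had 49.9 and 37.2 CPM against 22.5, 17.0 and 17.8 CPM. The log2 fold change was -1.19 ± 0.23 (edgeR adjusted p = 0.00625), and the F11r call was lost without untreated replicate 1 (adjusted p = 0.108, in a range of 0.000110 to 0.108).

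All 3 members of the group of cadherins and Epcam fell. Cdh5, VE-cadherin, had 193 and 202 counts (23.8 and 25.5 CPM) against 6, 7 and 3 counts. Its log2 fold change was -5.08 ± 0.36, which is 33.9-fold lower (edgeR adjusted p = 3.20e-05), and it was the largest difference among the tested members. The 9 other endothelial markers summed to 42.2 and 31.5 CPM against 6.21, 10.3 and 7.58 CPM. Of these 9, 0 were higher, 1 was lower, 4 did not pass and 4 were under the filter. Tek, Tie1 and Emcn were at 0 counts in all 5 libraries, and Cldn5 had 3 and 1 untreated counts and 0 in each TBI library. Esam had 24 and 16 counts against 0, 0 and 6. The part of endothelial cells in the fall of Cdh5 was not tested. Kdr held most of the untreated sum, with 216 and 153 counts against 0, 44 and 27.

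Cdh1, E-cadherin, the ligand of alpha E beta 7, had 115 and 117 CPM against 18.5, 42.2 and 40.6 CPM. All TBI libraries were below the untreated ones, and the log2 fold change was -1.78 ± 0.31 (edgeR adjusted p = 0.00389). Receptor chain (Itgae) and ligand (Cdh1) were thus both lower in the same libraries. Epcam, an adhesion molecule of epithelia that Langerhans cells also carry, had 30.7 and 32.7 CPM against 21.1, 20.0 and 15.02 CPM. On the log2 scale the difference was -0.76 ± 0.22 (edgeR adjusted p = 0.0388), and its call was lost in 6 of 15 alternatives, among them the omission of either untreated library, of TBI replicate 2 or of TBI replicate 3, with adjusted p from 0.0103 to 0.274. The 9 other thymic epithelial markers summed to 35.9 and 38.9 CPM against 31.4, 29.9 and 29.9 CPM, and none of the 6 tested passed. The type 1 and plasmacytoid dendritic cell markers given above fell in the same libraries, and their part in the fall of Cdh1, Cdh5 and Epcam was not tested.

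The selectin ligand and the hyaluronan receptor did not pass. Selplg, the P-selectin ligand PSGL-1, had 1239 and 1186 CPM against 1115, 1037 and 1071 CPM. Its groups did not overlap, but the log2 fold change was -0.17 ± 0.11 (edgeR adjusted p = 0.286). Scaling by library size alone gave -0.40 with an adjusted p of 0.0196, in a range of 0.0196 to 0.709, and moved the median of all genes from -0.01 to -0.23. Cd44 had 462 and 528 CPM against 369, 564 and 449 CPM, with a log2 fold change of -0.10 ± 0.18 (edgeR adjusted p = 0.724) that was 0.03 without TBI replicate 1.

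Per exon length, Selplg had the highest untreated level of the 34 genes, at 284 ± 8.81 RPKM (SD, n = 2), ahead of Itgb2 at 256 ± 3.0, Itgb7 at 191 ± 5.31 and Itgb1 at 85.7 ± 2.59. Each of these was separated from the next by more than its range. Icam1 (73.4 ± 4.78 RPKM), Cd44 (73.1 ± 6.89) and Itgal (70.1 ± 0.21) came next and overlapped in their ranges. After TBI the order was led by Itgb2 at 544 ± 44.2 RPKM (SD, n = 3), followed by Selplg at 252 ± 9.12, Itgam at 234 ± 58.4, Icam1 at 192 ± 7.86 and Itgb7 at 186 ± 7.73, where neighbours after Itgb2 had overlapping ranges. Itgam moved from rank 11 to rank 3, and Cdh5 from rank 19 to rank 30. Over all 16 alpha chains, Itgam made up 9.82% and 12.1% of the summed level per exon length in untreated libraries and 59.7%, 61.8% and 57.3% after TBI, while Itgae went from 22.4% and 21.6% to 6.33%, 4.61% and 6.10%.

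**Figure D4:**
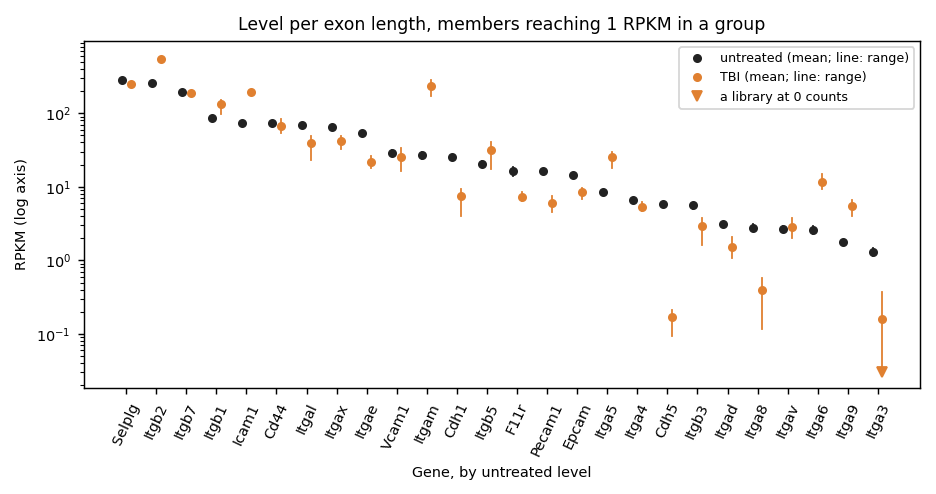
Level per exon length (RPKM, log axis) of the members that reached 1 RPKM in a group, ordered by untreated mean, with points for means and lines for the range over 2 untreated or 3 TBI libraries. Itgb2, Itgam and Icam1 stand above their untreated points, and Cdh5 drops from 5.87 to 0.170 RPKM.

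Genes that act with these receptors were read from 4 lists written from textbook knowledge. Of 40 genes for integrin activation and adaptors, 35 were tested, and 6 were higher, 5 lower and 24 not past the threshold, and the median log2 fold change was 0.03. The share called, 31.4%, was near the background of 23.1%. Among the 6 higher genes, Tln2 and Lims2 passed the filter only through the TBI libraries, and Parvb (11 and 6 untreated counts) also needed them. The count of higher genes is thus partly set by the filter. Rap1b, the small GTPase that switches integrins on, rose (log2 fold change 0.95 ± 0.11), as did Zyx, the focal adhesion protein zyxin (0.83 ± 0.12). Parvg, the leukocyte parvin, fell (-0.98 ± 0.13). Tln2, the second talin gene, had 0 counts in both untreated libraries and 70, 70 and 43 after TBI, at least 21.9-fold higher against a floor of 3 counts per library. Talin 1 (Tln1), the main leukocyte talin, had 4279 and 4478 counts against 1899, 4553 and 4533, and kindlin 3 (Fermt3) had 3044 and 2977 against 3027, 3744 and 3790, and neither passed. Without TBI replicate 1 the list had 12 higher and 10 lower genes, without TBI replicate 3 it had 3 lower, without untreated replicate 1 it had 5 higher and 2 lower, without untreated replicate 2 it had 3 and 2, and by library size alone it had 5 and 10.

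Of the integrin ligand genes that passed the test, all were higher. Of 34 listed, 32 were in the table and 19 were tested, of which 11 were higher, 0 lower and 8 not past the threshold, with a median of 2.04. The share called was 57.9%, where the background was 23.1%, and 13 genes were under the filter. Among the 11, Col1a1, Col1a2, Col3a1, Col4a1, Col4a2, Cyr61 and Jam2 had at most 7 counts in an untreated library. They passed the filter only through the TBI libraries, so the share, the direction and the median are partly set by the filter. The edgeR count of 0 lower genes became 1 at an unadjusted p of 0.05, DESeq2 and limma-voom also gave 0, and the replicate block and the omission of TBI replicate 3 each gave 1. Fn1, fibronectin, a ligand of alpha 5 beta 1, had 300 and 296 counts against 10129, 27460 and 24613, a log2 fold change of 6.19 ± 0.42. Icam2, a further ligand of LFA-1, had 183 and 160 counts against 1592, 1464 and 1005 (3.09 ± 0.26). Col3a1 had 0 and 1 counts against 165, 82 and 151, and Col1a1 had 0 and 1 counts against 27, 21 and 44. Their count ratios, 284 and 65.5, had exact 95% binomial intervals of 50.6 to 11228 and 11.5 to 2617. Jam2 had 0 untreated counts and 39, 59 and 65 after TBI, at least 19.2-fold higher. Mesenchymal markers (8 genes, Col1a1 and Col3a1 among them) summed to 3.70 and 2.91 CPM against 271, 33.04 and 121 CPM in the same libraries. Of these markers 5 were higher, 0 were lower, 1 did not pass and 2 were under the filter, and Pdgfra was at 0 counts in all 5 libraries. The part of such cells in the collagen counts was not tested. Without untreated replicate 2 the list had 6 higher genes, with limma-voom it had 7 and without TBI replicate 1 it had 12.

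Selectin and hyaluronan genes include the partners of Selplg and Cd44. Of 18 tested genes 9 were higher, 2 lower and 7 not past the threshold, with a median of 0.79. The share called was 61.1%, where the background was 23.1%. Among the 9 higher genes, Lyve1, Has1, Hyal1 and Tnfaip6 had at most 8 counts in an untreated library. They passed the filter only through the TBI libraries. Selp, with 9 counts in untreated replicate 2, also needed TBI libraries to pass it. The share and the median are thus partly set by the filter. Selp, P-selectin, the main partner of PSGL-1, had 24 and 9 counts against 1242, 1523 and 1130 (log2 fold change 6.38 ± 0.34). The hyaluronan receptor Lyve1 had 8 and 4 counts against 1170, 1416 and 1647 (7.94 ± 0.29), and the scavenger receptor Stab1 had 49 and 68 against 310, 740 and 809 (3.47 ± 0.41). St3gal4, a sialyltransferase used to build selectin ligands, rose by less (0.83 ± 0.13). The list had 4 higher and 1 lower gene without untreated replicate 1, 3 and 1 without untreated replicate 2, 5 higher without TBI replicate 3, 5 higher with limma-voom and 3 lower without TBI replicate 1.

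Of 24 tested cadherin and junction partner genes 4 were higher, 3 lower and 17 not past the threshold, with a median of 0.21. The share called, 29.2%, was near the background of 23.1%. Among the 4 higher genes, Klrg1 passed the filter only through the TBI libraries, so that count is partly set by the filter. Cldn1, a tight junction claudin, had 2970 and 2757 counts against 291, 297 and 119 (log2 fold change -3.50 ± 0.34), and Cadm1, a cell adhesion molecule of type 1 dendritic cells, had 1472 and 1575 against 202, 272 and 168 (-2.74 ± 0.20). Emb, embigin, rose by 1.27 ± 0.13 on the log2 scale, Jup, plakoglobin, by 0.60 ± 0.13 and Klrg1, a lymphocyte receptor for cadherins, from 2 and 3 counts to 13, 43 and 68. The alpha and beta catenins that link cadherins to actin differed: Ctnna1 fell (-0.72 ± 0.20) and Ctnnb1 did not pass (-0.24 ± 0.15). Without TBI replicate 1 the list had 7 higher genes, without untreated replicate 1 or untreated replicate 2 it had 1 higher and 2 lower, and by library size alone it had 2 higher and 4 lower.

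**Figure D5:**
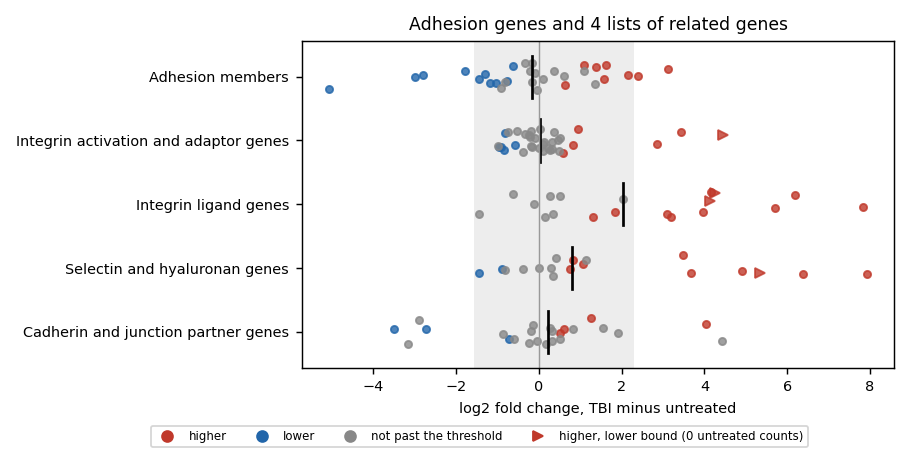
Log2 fold change (TBI minus untreated) of each tested gene in the adhesion set and in 4 lists of related genes, with a black bar at each median, triangles for lower bounds of genes with 0 untreated counts and a grey band from the 5th to the 95th percentile of all tested genes. The integrin ligand genes have their median at 2.04, to the right of the adhesion set at -0.17.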

How the data were processed

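The deposited values are raw read counts per gene symbol. The submitters' processing notes name STAR 2.5.2a, featureCounts 1.6.0 and the mm10 build. Libraries were made with a SMART-Seq v4 kit, per the labels' protocols, without molecular identifiers, so intervals and floors cover counting error only. The annotation, strand setting and handling of multiply mapped reads are not given in the sources used here. One protocol note names another day, but titles and treatment tags give day 4.

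Counts were tested in edgeR 4.0.16 (R 4.3.3) with TMM, filterByExpr (minimum count 10, minimum total 15), the quasi-likelihood test and Benjamini-Hochberg adjustment over 12046 genes at 0.05, with group as the only term. Genes near 0 counts in 1 group could pass this filter through the other group alone, which bears on shares called and medians. A positive log2 fold change means higher after TBI. RPKM is TMM-scaled CPM per kilobase of merged GENCODE exons (GRCm38). Alternatives used DESeq2 1.42.0, limma 3.58.1, other scalings and filters, a replicate block and the omission of each library. Removal of length trends (lowess span 0.3) was added after the data were seen. Functions were tested on simulated data. Figures used matplotlib 3.10.9.

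Members and lists were chosen with earlier results of these data known. Every member was named, with up to 5 genes of smallest p per list. Of these list genes, 2 are not reported here. Tln1, Fermt3, Ctnna1, Ctnnb1, list genes named only for the filter and the marker genes named singly were picked after their values were seen. Older symbols were matched through RefSeq synonyms. The table held 0 columns of other samples.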

Additional observations from a re-analysis of the deposited data

How the results depend on the processing

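All 18 called members kept their direction in each alternative run, and 11 of them were called in every one that tested them: Itgam, Itgb2, Itgae, Itga5, Itga6, Itga8, Itga9, Icam1, Pecam1, Cdh1 and Cdh5. Leaving out a library gave 810 to 2148 higher and 423 to 1780 lower genes, and 6 to 9 higher and 5 to 12 lower members. With 1 untreated library, its spread is borrowed from the TBI group. Library size alone gave 2129 lower genes. Direction turned for 6 members that were not called. With each library left out, log2 fold changes ran from -0.53 to 3.04 for Itgb2l (-0.18 without TBI replicate 1), from -0.065 to 0.0030 for Itgb7, from -1.06 to 0.089 for Itga1 (0.051 without TBI replicate 2), from -0.13 to 0.30 for Itgav (-0.023 without untreated replicate 1), from -0.41 to 0.057 for Vcam1 and from -0.28 to 0.033 for Cd44. Itgav was at -0.12 by library size alone and at -0.15 with the replicate block. Removal of the length trend gave 0.050 for Itga1 and 0.042 for Cd44. The replicate block left 7 higher and 10 lower members. Same-numbered libraries did not deviate together (r = -0.01 across genes, 2 pairs), but 2 pairs cannot settle whether libraries were paired. The numbers are taken as names only because the labels state no pairing. The causes of these changes were not tested. Itga2, Itga3 and Itga2b had at most 66 counts in a library, which limits their precision.
Cdh5, Itgb2l and Itgb4 gave no value under the stricter filter.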
